A study of Mus musculus with 4 samples.

Results

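The MYC and MAX network is a family of transcription factors that compete for the same partner and the same DNA. In NIH/3T3 cells, 10 of its genes were examined after knockdown of *Setd2*, namely *Myc*, *Mycn*, *Max*, *Mxd1*, *Mxd3*, *Mxd4*, *Mxi1*, *Mnt*, *Mlx* and *Mga*. Members were taken by symbol from the deposited table of transcripts, and each of the 10 genes was found in it. Together they had 21 tested transcripts, of 34200 transcripts and 21945 genes in all.

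NIH/3T3 is an immortalised line of mouse fibroblasts. Cells were transfected either with a pair of siRNAs against *Setd2* (KD, 2 libraries) or with a Scrambled siRNA (WT, 2 libraries). The final siRNA concentration was 10 nM and RNA was collected 48 h later in both groups. No gene was deleted, so WT stands for transfected cells with the *Setd2* mRNA left in place, and the KD cells still carry some of it. Polyadenylated RNA was sequenced from stranded libraries, and the table holds a summary of the comparison over the 4 libraries rather than the values of each library.

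MYC and its relative MYCN bind DNA only when paired with MAX, and the pairs activate genes for growth, ribosome production and metabolism. MXD proteins, MXI1 and MNT also pair with MAX, but bring the SIN3 corepressor to the same E-box sites and oppose MYC. MLX is a MAX-like protein that pairs with MNT, with some MXD proteins and with the nutrient sensors MondoA and ChREBP, whereas MGA pairs with MAX inside a Polycomb complex that keeps germ cell genes silent.

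The E-box that these dimers prefer is the palindrome CACGTG, which reads the same on both strands. It was searched in the 300 bases around the RefSeq start of each gene (250 before it and 50 from it, GRCm38.p6). A promoter was at hand for 9 of the 10 members, with *Myc* the exception. The E-box was present in 4 of these 9 genes. Counted by promoter, it was in 4 of their 11 promoters, against 7.15% of 32851 promoters of all genes. It is shown in capitals within 12 bases on each side, on the strand of the gene, because it is the sequence that dimers of the network are known to prefer.

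*Mxd4*: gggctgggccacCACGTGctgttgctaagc

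*Mnt*: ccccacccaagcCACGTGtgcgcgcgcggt

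*Mlx*: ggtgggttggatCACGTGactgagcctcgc

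*Max*: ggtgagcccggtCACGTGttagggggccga

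The windows lie at chr5:34187912-34187941 (minus strand), chr11:74830789-74830818 (plus strand), chr11:101087238-101087267 (plus strand) and chr12:76962234-76962263 (minus strand), in that order. The motif begins 219 bases before the RefSeq start of *Mxd4*, 123 before that of *Mnt*, 40 before that of *Mlx* and 3 before that of *Max*. The tested transcripts *Max-201* and *Max-202* start further downstream, at chr12:76962201 and chr12:76962185 on the minus strand, so the motif lies further before them. The windows of the other 5 genes, *Mycn*, *Mxd1*, *Mxd3*, *Mxi1* and *Mga*, did not hold these 6 letters. Binding was not measured in these cells.

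In the text below, a level is the number of estimated reads of a transcript after normalisation between libraries, computed for each group from the mean over the 4 libraries and the effect of the knockdown. A transcript was called when the p-value of Sleuth's likelihood ratio test, adjusted over all 34200 transcripts by the Benjamini-Hochberg method, was under 0.05. Of all transcripts, 12.5% were called, 7.26% as higher and 5.21% as lower in KD. Effects are given as log2(fold change) of KD over WT, with the standard error (SE) or the 95% confidence interval computed from it. The likelihood ratio test rests on 2 libraries of each group, and nothing in the labels says whether these came from separate cultures, so the spread may be technical. How far single KD and WT libraries overlapped was not examined here.

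*Setd2*, the target of the siRNAs, fell from 3680.4 to 923 (log2(fold change) −1.99, SE 0.09, adjusted p = 0.0103), so its level fell by 74.9%. In RNA from a whole culture, a larger fall in some of the cells and a smaller one in all of them cannot be told apart, here and for each gene below. All 10 fibroblast markers examined were present, at summed levels from 3083 (the lowest) upwards, whereas 5 of 9 markers of other cell types were tested at means from 29.5 to 146 and the other 4 were not in the table. *Actb*, a common scaling gene, was itself called higher (log2(fold change) 0.46, adjusted p = 0.0310), and values relative to it are therefore 0.46 lower for each transcript.

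Of the 21 transcripts of the network, 5 were called, 4 of them higher and 1 lower in KD. That is 23.8% of the members, beside the 12.5% of all transcripts. The mean of 19 members reached 100 normalised estimated counts, and of these 26.3% were called, beside 21.4% of the 18808 transcripts with such a mean. The 4 higher transcripts belonged to *Myc* and *Mlx* and the lower transcript to *Mxd4*, so 7 genes had none. The median log2(fold change) of the 21 transcripts was 0.17, against −0.011 over all transcripts, and it was −0.28 when taken relative to *Actb*. Over the 19 members with such a mean it was 0.19, against 0.048 over the 18808 transcripts. At an unadjusted p-value under 0.05, 13 of the 21 would have passed, all of them among the 19 with such a mean (68.4%), where 55.2% of the 18808 transcripts would. *Myc-201* and *Myc-205*, which have the same sequence and values, are both counted in these numbers. With p-values combined by gene, which carry no direction, 4 of the 10 genes passed, namely *Myc* (adjusted p = 9.56e-05), *Mlx* (adjusted p = 2.81e-04), *Mxd4* (adjusted p = 0.0134) and *Max* (adjusted p = 0.0320), against 24% of all genes. The 24% takes in genes of low level. The share among genes with a transcript of a mean of at least 100 was not computed, so this count shows no excess of the network. The combined p-value of *Myc* takes in *Myc-201* and *Myc-205* as if they were separate measurements, which they are not.

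**Figure D1:**
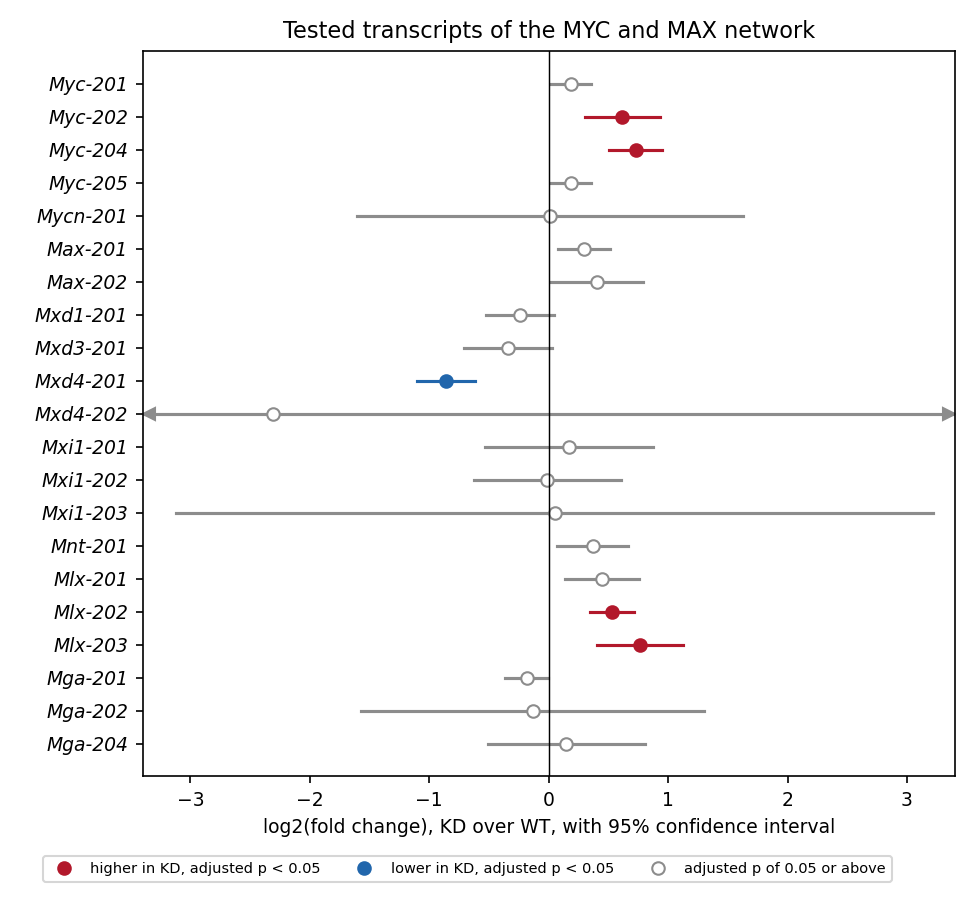
Log2(fold change) of KD over WT (x axis) for the 21 tested transcripts of the network (y axis), with 95% confidence intervals as lines and filled points for called transcripts. *Myc-202*, *Myc-204*, *Mlx-202* and *Mlx-203* lie above 0 and *Mxd4-201* below it, each with an interval clear of 0, and the arrows on *Mxd4-202* mark an interval that runs past the axis, from −8.76 to 4.14.

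*Myc*, the central activator of the network, had 4 tested transcripts on chromosome 15, and 2 of them were called higher in KD. *Myc-204* (chr15:61987422-61990253, plus strand, GRCm38) starts downstream of the first exon of the other 3 transcripts and has 2 exons. Its level was 1303 in WT and 2159 in KD, a log2(fold change) of 0.73 (SE 0.11, adjusted p = 0.0137). *Myc-202* (chr15:61985564-61990374) went from 1117 to 1714, a log2(fold change) of 0.62 (SE 0.16, adjusted p = 0.0303). Both called transcripts were thus more than 50% higher, by 65.7% (interval 42.1% to 93.2%) and by 53.4% (interval 23.6% to 90.5%).

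The other 2 transcripts of *Myc*, *Myc-201* and *Myc-205*, are letter for letter the same over 2338 bases, so reads cannot tell them apart and each carried the same value. Each was at 3075 in WT and 3499 in KD, a log2(fold change) of 0.19 (interval 0.02 to 0.35, adjusted p = 0.0921), which did not pass the test. What separates them is the annotated start of the protein. *Myc-201* is annotated from a CUG codon upstream of the usual AUG, which gives the longer of the known forms of MYC, and its coding sequence is 45 bases longer. The part of this extension that lies in the first exon (chr15:61985922-61985951) is shown with the CTG start in capitals, because the knockdown data cannot assign reads to the longer or the shorter protein.

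*Myc*, coding extension: CTGgatttcctttgggcgttggaaaccccg

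Summed over its 4 transcripts, *Myc* was at 8570.4 in WT and 10870 in KD, which is 26.8% higher. The log2 ratio of these sums, 0.34, was smaller than the 0.46 of *Actb*, so the sum was lower relative to *Actb*. The share of *Myc-204* in this sum was 15.2% in WT and 19.9% in KD, that of *Myc-202* 13.0% and 15.8%, and that of *Myc-201* and *Myc-205* 35.9% and 32.2% each. The division among these transcripts rests on few letters, since only 4.84% of the 31-base words of *Myc-204* and 1.11% of those of *Myc-202* occur in no other transcript. All words of *Myc* were particular to the gene. Here and below, words were searched only in the transcripts that GENCODE M21 tags as basic, so sharing with other transcripts was not seen. Relative to *Actb*, *Myc-204* and *Myc-202* stayed above 0, at 0.27 and 0.16, and *Myc-201* fell to −0.27.

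*Mycn*, which does the work of MYC in embryonic and neural cells, was the lowest member by summed level. *Mycn-201* was at 58.5 in WT and 59.0 in KD, a log2(fold change) of 0.01. The interval, from −1.60 to 1.63, leaves room for a change of either sign larger than that of *Myc*. Per kilobase of transcript, the level of *Myc* was 177 times that of *Mycn* in WT.

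*Max*, the obligate partner of MYC and of the MXD proteins, had 2 transcripts on the minus strand of chromosome 12, and neither was called. *Max-201* (chr12:76937274-76962201) went from 2576 to 3162, a log2(fold change) of 0.30 (interval 0.08 to 0.51, adjusted p = 0.0895). *Max-202* (chr12:76937269-76962185) went from 535 to 708, a log2(fold change) of 0.40 (interval 0.02 to 0.79, adjusted p = 0.145). Both intervals lie above 0, although relative to *Actb* the values are −0.16 and −0.05. The combined p-value of the gene passed at 0.0320.

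The 2 forms of *Max* differ by an exon of 27 bases (chr12:76961263-76961289) that only *Max-202* includes. It lengthens the coding sequence from 453 to 480 bases and stands for the long and the short form of MAX, which differ near the start of the protein.

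*Max*, exon in *Max-202*: gaagagcaaccgaggtttcaatctgcg

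*Max-201* made up 82.8% of the summed level of the gene in WT and 81.7% in KD. By these estimates the short form was the main one in both groups, but only 2.37% of the 31-base words of *Max-201* and 1.73% of those of *Max-202* occur in no other transcript.

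*Mxd4* encodes a repressor that is typical of cells leaving the cycle and competes with MYC for MAX. It was the only member with a transcript called lower. *Mxd4-201* (chr5:34173887-34187710, minus strand) fell from 2481 to 1368, a log2(fold change) of −0.86 (SE 0.12, adjusted p = 0.0158). Its level thus fell by 44.8% (95% confidence interval of the log2(fold change) −1.10 to −0.62). Of all 18808 transcripts with a mean of at least 100, 710 fell by at least as much on the log2 scale, which is 3.78%. Relative to *Actb* the value was −1.31, and after centring on transcripts of like GC content, whose median was 0.22, the transcript was still called lower. On the opposite strand, the gene *Gm42846*, which is not in the table, shares 12.02% of the 31-base words of *Mxd4-201*. The libraries were stranded, but the sources used here do not say whether the count estimates used the strand. Whether reads of genes on opposite strands were confused, here and below, is therefore not known.

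A second transcript, *Mxd4-202*, skips an exon of 30 bases (chr5:34184314-34184343) that *Mxd4-201* includes, and its coding sequence is 597 bases instead of 627.

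*Mxd4*, exon in *Mxd4-201*: gtcttcacacaacgaactagaaaagcacag

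*Mxd4-202* was at 23.7 in WT and 4.38 in KD and did not pass (adjusted p = 0.732). It was 0.948% of the gene's level in WT, so the fall of the gene, from 2505 to 1373, was that of the full transcript.

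*Mxd1* and *Mxd3* encode the other MXD repressors that were tested under that name, and neither passed the test. *Mxd1-201* (chr6:86647042-86669161, minus strand) was at 568 in WT and 481 in KD, a log2(fold change) of −0.24 (interval −0.53 to 0.05, adjusted p = 0.113). *Mxd3-201* (chr13:55325168-55329758, minus strand) was at 353 and 279, a log2(fold change) of −0.34 (interval −0.70 to 0.03, adjusted p = 0.177). After centring on GC content, the value of *Mxd3-201* was −0.53 and passed the Wald test (adjusted p = 0.0352). *Mxd3-201* shares 5.78% of its 31-base words with *Prelid1* on the opposite strand, which was called higher (log2(fold change) 0.51, adjusted p = 0.0137). The point estimates of all 3 *Mxd* genes thus lay below 0, with a call for *Mxd4* alone in the likelihood ratio test.

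*Mxi1*, which encodes a repressor of the same family, had 3 transcripts with values near 0. *Mxi1-202* was at 537 in WT and 533 in KD, *Mxi1-201* at 453 and 510.2, and *Mxi1-203* at 133 and 138. The log2(fold changes) were −0.01, 0.17 and 0.05, with adjusted p = 1 for the first and second and 0.893 for the third. The interval of *Mxi1-203*, from −3.12 to 3.22, is the widest of the transcripts with a mean above 100. Summed, *Mxi1* was at 1124 in WT and 1181 in KD. The transcript versions of *Mxi1* did not match the annotation, so lengths and positions are not given.

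*Mnt* encodes the most widely expressed MAX-bound repressor. *Mnt-201* (chr11:74830920-74845725, plus strand), its single tested transcript, was at 2175 in WT and 2806 in KD. The log2(fold change) was 0.37 (interval 0.07 to 0.66, adjusted p = 0.104), which did not pass the test. Transcripts of like GC content had a median of 0.17, and relative to *Actb* the value of *Mnt-201* was −0.09.

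*Mlx* had 3 tested transcripts on the plus strand of chromosome 11, of which 2 were called higher in KD. *Mlx-202* (chr11:101087277-101092207), which carried 69.0% of the level of the gene in WT, rose from 1811 to 2614, a log2(fold change) of 0.53 (SE 0.09, adjusted p = 0.0194). *Mlx-203*, over the same interval of the genome, rose from 316 to 537, a log2(fold change) of 0.76 (SE 0.19, adjusted p = 0.0265). *Mlx-201* (chr11:101087300-101092207) went from 499 to 679.6 and did not pass in the likelihood ratio test (log2(fold change) 0.44, SE 0.16, adjusted p = 0.0640), but did in the Wald test (adjusted p = 0.0288). Summed, *Mlx* was at 2626 in WT and 3830.0 in KD, 45.9% higher. In percent, this was the largest rise of a summed level among the 10 genes.

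*Mlx-203* lacks an exon of 90 bases (chr11:101088236-101088325) that *Mlx-202* includes, and its coding sequence is 642 bases instead of 732. The exon is shown because the share of the transcript without it, 12.03% in WT and 14.0% in KD, was the part of the gene with the larger estimate.

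*Mlx*, exon in *Mlx-202*: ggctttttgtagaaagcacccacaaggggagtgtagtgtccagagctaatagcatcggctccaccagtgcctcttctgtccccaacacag

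The intervals of *Mlx-202* (0.34 to 0.72) and *Mlx-203* (0.40 to 1.13) overlap, so the forms did not separate. Of the 31-base words of *Mlx-202* 0% occur in no other transcript, and of those of *Mlx-203* 1.70%, so the division between them rests on few letters. Relative to *Actb*, *Mlx-202* was at 0.07 and *Mlx-203* at 0.31. The 3 forms share from 18.3% to 20.8% of their 31-base words with *Psmc3ip* on the opposite strand, whose transcript did not pass the test (log2(fold change) −0.07, adjusted p = 0.122).

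*Mga*, the very long member whose protein holds both a T-box and a region that pairs with MAX, had 3 transcripts on the plus strand of chromosome 2, and none was called. *Mga-201* (chr2:119897228-119967749), with 77.5% of the level in WT, was at 3455 in WT and 3043 in KD. The log2(fold change) was −0.18 (interval −0.36 to −0.01, adjusted p = 0.0908), and transcripts of like GC content had a median of −0.18 as well. *Mga-204* (0.15) and *Mga-202* (−0.13) had intervals from −0.51 to 0.81 and from −1.57 to 1.30. *Mga-202* lacks an exon of 624 bases that *Mga-204* includes.

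Per kilobase of transcript, the scale on which genes can be compared, *Myc* was the highest of the 9 members with a known length, at 3879.8 in WT and 4999.9 in KD normalised estimated counts per kilobase. In WT it was followed by *Max* (1613), *Mlx* (1428), *Mxd4* (661), *Mnt* (474), *Mga* (361), *Mxd3* (266), *Mxd1* (122) and *Mycn* (21.9). With the spread of the main transcript of each gene taken as the spread of the gene, *Max* and *Mlx* could not be ordered in WT (log2 difference 0.18, interval −0.03 to 0.38), whereas each of the other neighbours was separated by an interval above 0. In KD the order of *Mxd4* and *Mnt* was the reverse of that in WT, with *Mnt* at 611 and *Mxd4* at 357. *Mxd4* was then not separated from *Mga* (log2 difference 0.11, interval −0.10 to 0.32), nor *Mlx* from *Max* (0.06, interval −0.15 to 0.26).

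**Figure D2:**
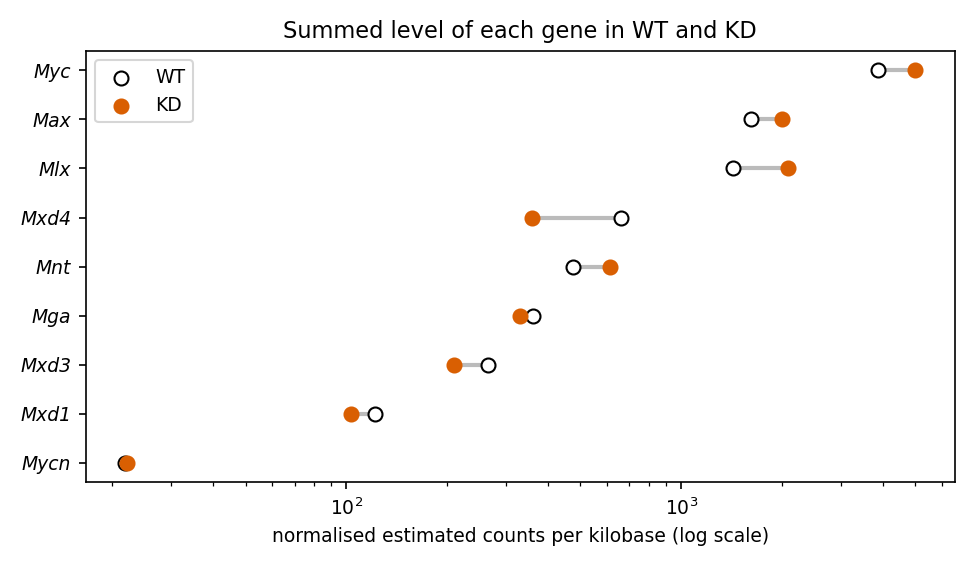
Normalised estimated counts per kilobase, summed over the transcripts of each gene (x axis, log scale), in WT (open points) and KD (filled points) for the 9 members with a known transcript length. *Mxd4* moves from 661 to 357 and ends below *Mnt*, which moves from 474 to 611, while *Myc* is the highest in both groups.

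The proportions between members can be read on the same scale, as a description without a test. There were 5.87 units of *Myc* for each unit of *Mxd4* in WT and 14.0 in KD. *Myc* over *Max* was nearly even between groups, at 2.41 and 2.49, and so was *Mnt* over *Myc*, at 0.122 in both. *Mlx* over *Max* went from 0.885 to 1.04. *Mxd1*, *Mxd3* and *Mxd4* together summed to 1048 per kilobase in WT and 670.3 in KD, of which *Mxd4* was 63.1% and 53.3%. A scaling applied to a whole library leaves these ratios as they are.

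Around the 10 members, lists of partners, regulators and targets were counted by gene, a gene being counted as higher or lower through 1 called transcript or more. Values beside a gene are those of 1 called transcript, the one numbered 201 unless another is named, and other transcripts of the gene may differ. Over all 21945 genes, 10.1% had a higher and 7.43% a lower transcript. Among the 12029 genes with a transcript of a mean of at least 100, as most listed genes are, the shares were 17.8% and 12.5%. A gene with more tested transcripts has more chances to be counted, and the lists were not matched to all genes in this. The 14 genes of *Myc* mRNA handling had 42 tested transcripts and the 59 genes activated by MYC had 121, beside 34200 for all 21945 genes.

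**Figure D3:**
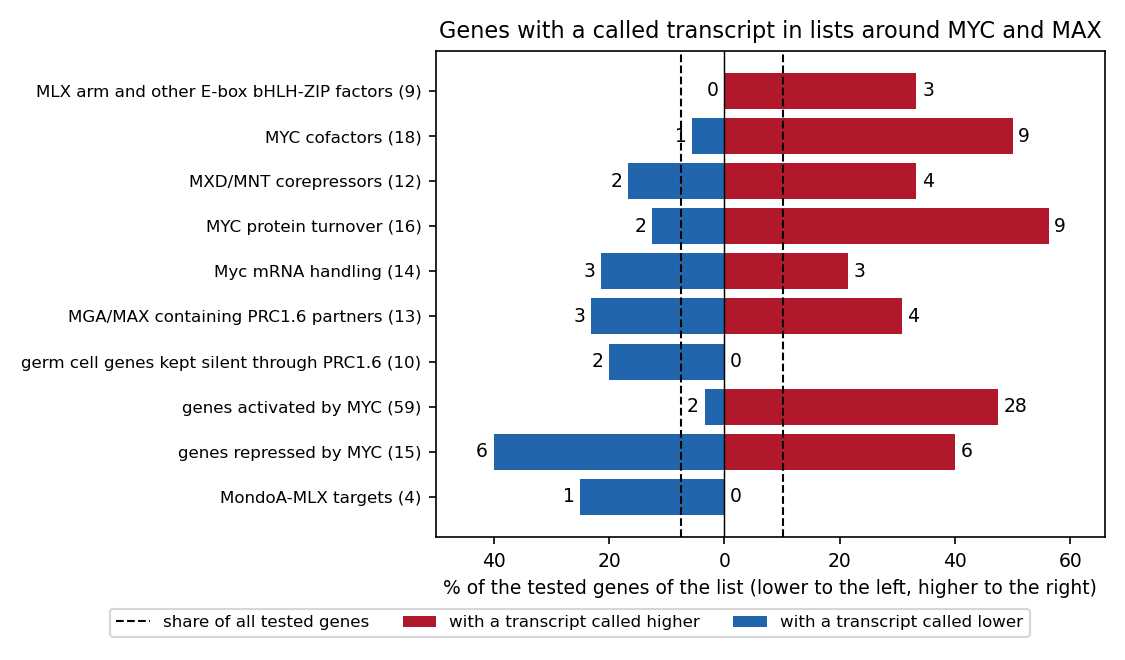
Share of the tested genes of each list (number of tested genes in brackets) with a transcript called higher (right) or lower (left) in KD, in percent, with the number of genes at the end of each bar and the share over all tested genes as dashed lines. Genes activated by MYC had 28 genes higher and 2 lower, whereas genes repressed by MYC had 6 in each direction.

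Other E-box factors of the same protein class included 3 genes with a higher transcript. Of 9 genes, 3 were higher and 0 lower in the likelihood ratio test. At an unadjusted p-value under 0.05, 4 would be higher and 1 lower, and 1 was also lower in the Wald test while 0 were in limma's moderated test. The list had a median log2(fold change) of 0.15 over its transcripts, 0.55 over those with a mean of at least 100, −0.05 after GC centring and −0.30 relative to *Actb*. The 3 were *Tfe3*, a regulator of lysosomal genes (*Tfe3-203*, 412 to 806, log2(fold change) 0.97, adjusted p = 0.0380), *Usf2*, which binds E-boxes in many promoters (*Usf2-201*, 1191 to 2037, 0.77, adjusted p = 0.0117), and *Tfap4*, itself a known target of MYC (*Tfap4-201*, 966 to 1411, 0.55, adjusted p = 0.0185). The genes of MondoA and ChREBP, *Mlxip* and *Mlxipl*, were among the 6 without a call.

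Of 18 MYC cofactors, 9 were higher and 1 was lower, with a median log2(fold change) of 0.27, or −0.18 relative to *Actb*. *Skp2*, a subunit of a ubiquitin ligase that also assists MYC, rose most (*Skp2-201*, 1038 to 2844, log2(fold change) 1.45, adjusted p = 0.0103). *Ruvbl2*, an ATPase of the TIP60 complex, rose from 5476 to 9294 (0.76, adjusted p = 0.0103). *Cdk9*, the kinase that releases paused polymerase, rose from 3109.5 to 4512 (0.54, adjusted p = 0.0137), *Hcfc1* by 0.46 and the acetyltransferase gene *Kat2a* by 0.44. *Paf1*, of the elongation complex of that name, was the one that fell (−0.24, adjusted p = 0.0473). In limma's moderated test, 5 cofactors passed, all of them higher.

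The corepressors that MXD proteins and MNT recruit moved in both directions, with 4 of 12 genes higher and 2 lower (median 0.14, or −0.32 relative to *Actb*). *Sin3b*, the scaffold itself, was at 1788 in WT and 2254 in KD (log2(fold change) 0.33, adjusted p = 0.0415). *Suds3* (0.50, adjusted p = 0.0321) and *Ncor1-203* (0.73, adjusted p = 0.0420) were also higher, while *Ncor1-204*, the most abundant transcript of *Ncor1*, was at −0.07 and not called. *Rbbp7*, a histone-binding subunit, fell (*Rbbp7-203*, 3046 to 1417, −1.10, adjusted p = 0.0330), as did the deacetylase gene *Hdac2* (7138 to 5391, −0.40, adjusted p = 0.0332).

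Of 16 genes that act on the stability of the MYC protein, 9 were higher and 2 lower, with a median of 0.34, or −0.12 relative to *Actb*. The list mixes genes that protect MYC and genes that lead to its breakdown. *Ppp2r5a*, a subunit of the phosphatase PP2A, rose most (1598 to 3228, log2(fold change) 1.01, adjusted p = 0.0103). *Aurka-203*, of a mitotic kinase that shields MYC family proteins, rose from 2186 to 3546 (0.70, adjusted p = 0.0117). *Trpc4ap*, a receptor of a ubiquitin ligase for MYC, rose from 3747 to 6004 (0.68, adjusted p = 0.0109). The 2 genes of GSK3, the kinase that marks MYC for breakdown, went apart, with *Gsk3a* higher (0.51, adjusted p = 0.0149) and *Gsk3b* lower (−0.46, adjusted p = 0.0172). *Usp37*, a deubiquitinase, fell from 1628 to 1150.1 (−0.50, adjusted p = 0.0277).

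Of 14 genes for proteins and an RNA that act on *Myc* mRNA or its locus, 3 had a higher and 3 a lower transcript, and 1 of these had both (median 0.04, or −0.01 after median centring and −0.42 relative to *Actb*). *Igf2bp3*, which binds and protects mRNAs, rose from 2840.4 to 4779 (log2(fold change) 0.75, adjusted p = 0.0106), and its relative *Igf2bp1* rose by 0.26 (adjusted p = 0.0459). *Zfp36*, which promotes the decay of mRNAs with AU-rich elements, fell (*Zfp36-202*, 2841 to 1293, −1.13, adjusted p = 0.0103). *Tia1-202* fell by 0.41 on the log2 scale (adjusted p = 0.0410). *Hnrnpd*, which also binds AU-rich elements, was the gene with both directions, since *Hnrnpd-201* rose from 4057 to 6883 (0.76, adjusted p = 0.0266) and *Hnrnpd-202* fell from 1032 to 63.1 (−4.02, interval −5.65 to −2.39, adjusted p = 0.0195). *Hnrnpd-211* was also called higher (0.59), and *Hnrnpd-203*, with the highest mean, was at 0.13 and not called. How well reads separate these transcripts was not examined, so the fall of *Hnrnpd-202* is not that of the gene.

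MGA and MAX work with PRC1.6, a variant Polycomb complex. Of 14 partners listed, 13 were tested, of which 4 were higher and 3 lower (median 0.04, or −0.01 after median centring and −0.42 relative to *Actb*). *Cbx1-203* (0.62, adjusted p = 0.0166), *L3mbtl2* (0.48, adjusted p = 0.0176) and *Ehmt2-202* (0.43, adjusted p = 0.0263) were among the higher transcripts. *Cbx3* fell from 11555 to 7683 (log2(fold change) −0.59, adjusted p = 0.0137), *Rnf2*, the ubiquitin ligase of the complex, from 3516 to 2474 (−0.51, adjusted p = 0.0172), and *Tfdp2* from 451 to 295 (−0.61, adjusted p = 0.0371). *E2f6* was not tested.

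Of 22 germ cell genes listed as kept silent through this complex, 12 were not tested at all and 10 were. In Sleuth's likelihood ratio test 0 were higher and 2 lower (median log2(fold change) −0.78 over all their transcripts and −0.43 over those with a mean of at least 100). At an unadjusted p-value under 0.05, 1 would be higher and 2 lower, and limma's moderated test and the Wald test gave 0 and 2. *Zcwpw1*, a reader of meiotic histone marks, fell from 2034 to 1183 (log2(fold change) −0.78, adjusted p = 0.0115), so it was not silent in either group. *Tdrkh*, a factor of the piRNA pathway, fell as well (*Tdrkh-208*, 341 to 119, −1.52, adjusted p = 0.0137). *Ddx4*, *Dazl*, *Sycp3* and *Stag3* were among those not tested.

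Among genes that MYC is known to activate, a list chosen with earlier results of these data known, more had a higher than a lower transcript. All 59 were tested, and 28 were higher, 2 lower and 29 not called, which is 47.5% and 3.39% beside 10.1% and 7.43% of all genes. Among the 58 with a transcript of a mean of at least 100, the shares were 48.3% and 3.45%, beside 17.8% and 12.5%. The median log2(fold change) over their 121 transcripts was 0.27, and 0.25 after centring on GC content, although it was −0.18 relative to *Actb*. Of their 36 transcripts called higher, 10 were below *Actb*, beside 775 of the 2484 called higher over all transcripts. *Rcc1*, which loads the nuclear GTPase Ran, rose most (*Rcc1-201*, 729 to 1527, log2(fold change) 1.07, adjusted p = 0.0132). *Slc7a5*, an importer of large amino acids, rose from 12198 to 24142 (0.98, adjusted p = 0.0103). *Shmt2*, of mitochondrial one-carbon metabolism (*Shmt2-206*, 0.82, adjusted p = 0.0106), *Eno1*, of glycolysis (*Eno1-202*, 31843 to 49325, 0.63, adjusted p = 0.0127), and *Srm*, of spermidine synthesis (3784 to 5829.6, 0.62, adjusted p = 0.0127), were also higher. The 2 lower genes were *Impdh2*, of guanine nucleotide synthesis (16240 to 12509, −0.38, adjusted p = 0.0198), and *Npm1* (*Npm1-203*, −0.35, adjusted p = 0.0362), a nucleolar chaperone that the rule for examples did not select and that was named after its value was seen. The other transcripts of *Npm1* were not called, and *Npm1-204* went the other way, from 33030 to 50499 (0.61, adjusted p = 0.0967).

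Genes that MYC is known to repress were called in both directions. Of 19 listed genes, 15 were tested, 6 had a higher and 6 a lower transcript, and *Cdkn1a* counted in both (median 0.02, or −0.02 after median centring and −0.43 relative to *Actb*). In limma's moderated test, 3 had a higher and 6 a lower transcript. *Thbs1*, an extracellular inhibitor of angiogenesis, fell most (61142 to 20857, log2(fold change) −1.55, adjusted p = 0.0103). *Gas1*, a gene of growth-arrested fibroblasts, fell from 12445 to 6077 (−1.03, adjusted p = 0.0103), and *Cdkn1b-202*, of a cell cycle inhibitor, from 4988 to 3492 (−0.51, adjusted p = 0.0144). *Cdkn1b-201* was at 2505 in WT and 2509 in KD and was not called. On the other side, *Itga6-202* (0.82, adjusted p = 0.0312), *Gadd45a* (1874 to 3101, 0.73, adjusted p = 0.0141) and *Ndrg1* (5859 to 9420, 0.69, adjusted p = 0.0103) rose. The more abundant transcript of *Itga6*, *Itga6-201*, was at 4338 in WT and 4473 in KD (0.04, adjusted p = 0.155) and was not called.

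**Figure D4:**
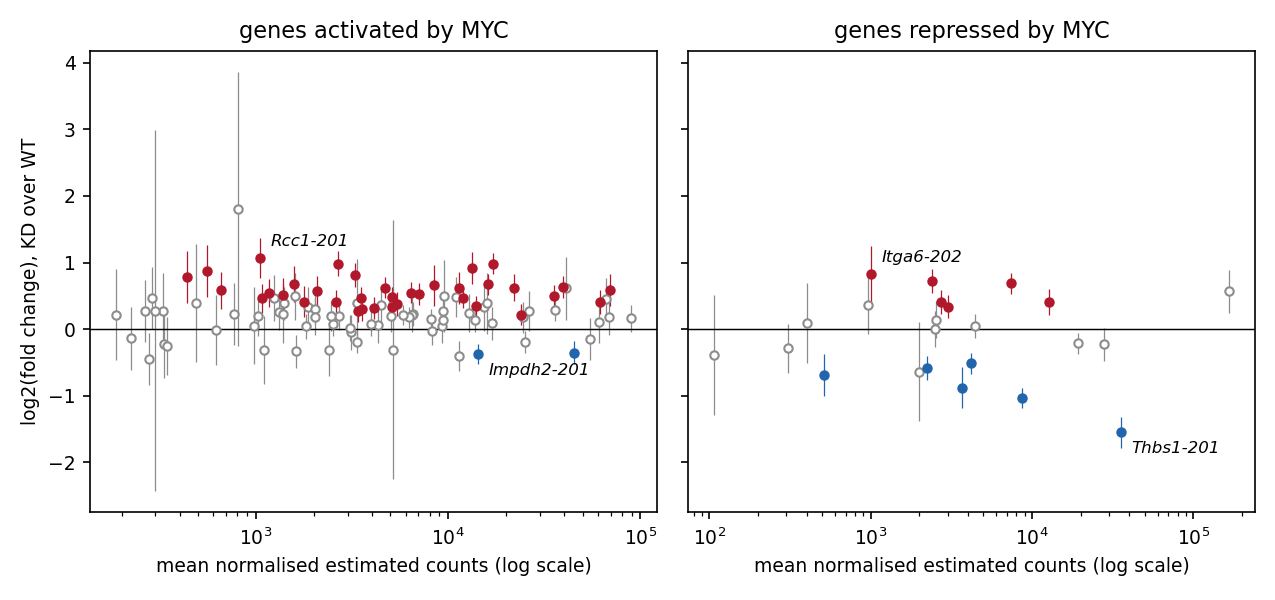
Log2(fold change) of KD over WT (y axis, 95% confidence intervals as lines) against the mean of normalised estimated counts (x axis, log scale) for transcripts with a mean of at least 100, of genes activated (left) and repressed (right) by MYC. Filled points are called transcripts, and the called transcripts with the largest rise and fall are named. On the left most called points lie above 0, up to 1.07 for *Rcc1-201*, and on the right they lie on both sides, down to −1.55 for *Thbs1-201*.

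MLX with MondoA activates genes that answer to glucose, of which 4 were listed. In the likelihood ratio test 1 was lower and 0 were higher, and 0 were higher also at an unadjusted p-value under 0.05, in the Wald test and in limma's moderated test (median log2(fold change) −0.13 over all 9 transcripts and −0.35 over those with a mean of at least 100). *Txnip*, the best known of them and a brake on glucose uptake, had 2 transcripts and both fell, *Txnip-202* from 2811 to 1741 (log2(fold change) −0.69, adjusted p = 0.0241) and *Txnip-201* from 1862 to 1256 (−0.57, adjusted p = 0.0329). *Arrdc4*, its relative, was at 1669.8 in WT and 1638 in KD (*Arrdc4-201*, −0.03, adjusted p = 0.174). *Arrdc3-201* was at 3213 and 2512 (−0.35, adjusted p = 0.0777) and *Klf10-201* at 1646 and 1608 (−0.03, adjusted p = 0.138). The estimates of the other 4 transcripts of these genes, *Arrdc3-205*, *Arrdc4-202*, *Klf10-202* and *Klf10-203*, did not pass either.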

How the data were processed

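RNA-seq of 2 KD and 2 WT libraries was analysed, grouped by the labels. The authors estimated transcript counts with Kallisto and compared the groups with Sleuth (the transcriptome index is not given in the sources used here, and the submitters' processing notes name bcl2fastq 2.17). The deposited means, effects, standard errors and variances are natural log values of normalised estimated counts plus 0.5. The authors also deposited p-values from both Sleuth tests (likelihood ratio and Wald) and, as a score, the statistic of the former. No value of a single library entered the analysis, so the depth of each library is unknown. The standard errors hold the spread between libraries and the variance of read assignment.

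Effects were converted from the natural log to log2. Levels in each group were computed from the mean plus or minus 0.5 times the effect, and 0.5 was subtracted after exponentiation. P-values were adjusted again (Benjamini-Hochberg) over all transcripts. A Wald test, limma 3.58.1 (moderated test from means and variances, tested on simulated data), a minimum mean of 100, median centring, *Actb* scaling and GC centring (50 classes, chosen after seeing the data) were the alternatives. Positions and sequences came from GENCODE M21 (GRCm38), and promoters from RefSeq (GRCm38.p6).

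Members and lists were chosen with earlier results of these data known. All members are named, and in each list the called transcripts with the largest rise and fall (mean of at least 100) and up to 4 more by smallest adjusted p, or every gene of lists of up to 5.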

Additional observations from a re-analysis of the deposited data

How the results depend on the processing

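The 5 called transcripts of the network were called in the same direction in the Wald test, limma's moderated test, with a minimum mean of 100, after median centring and after GC centring. Further calls were *Mlx-201* and *Max-201* in the Wald test (adjusted p = 0.0288 and 0.0439), *Mlx-201* with the minimum mean (adjusted p = 0.0377) and *Mxd3-201* after GC centring (adjusted p = 0.0352), which raised the transcripts called lower from 1 to 2. Relative to *Actb*, the median of the network was −0.28. The log2 ratio of the summed levels of *Myc* was 0.34, and that of *Myc-201* alone 0.19. limma's moderated test left 5 MYC cofactors called, with 5 higher and 0 lower, against 10 in the main test, 2 corepressors and 1 lower gene of MYC turnover. With GC centring 6 cofactors were called, 5 of them higher, and with the minimum mean 2 were lower. In the likelihood ratio test, small p-values also occurred at estimates near 0, so minimum-mean counts can include transcripts without a clear change. The same holds for counts at an unadjusted p-value and for the combined p-values of genes. The member *Mxd1-201* had an unadjusted p of 0.0316 in the likelihood ratio test and 0.1005 in the Wald test, with an interval from −0.53 to 0.05. The cofactor transcript *Wdr5-201* was at −0.07 (interval −0.23 to 0.09). Its adjusted p was 0.0753 in the likelihood ratio test and 0.681 in the Wald test. Genes of *Myc* mRNA handling numbered 9 in the Wald test and after median centring, and 10 with the minimum mean and after GC centring, against 5, while PRC1.6 partners numbered 12 with the minimum mean, against 7. Of MondoA-MLX targets, 2 were called in the Wald test, with the minimum mean and after median centring. Genes activated by MYC and called lower numbered 4 in the Wald test and with the minimum mean, and 6 after median centring. The cause of these shifts was not tested.

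Over all transcripts, the higher share of calls was 58.2%, and 48.6% after median centring in the Wald test, against 57.2% without it. The number of calls was 4266, 6233 in the Wald test, 3312 in limma's moderated test and 6440 with the minimum mean. No paired analysis was possible because no value of a single library entered the analysis, and for the same reason no library was left out in turn. With 2 libraries a group, wide intervals limit low or closely shared transcripts, such as *Mycn-201*, *Mxi1-203* and *Mxd4-202*.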
